A study of Mus musculus with 2 samples.

Results

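The ERM proteins and the molecules that link them to microvilli were followed through the mouse thymus by 8 genes out of the 20282 in the count matrix. They comprise the ERM genes Ezr (ezrin), Msn (moesin) and Rdx (radixin), the ERM kinases Stk10 (LOK) and Slk, and the membrane linkers Cd44 (CD44), Spn (CD43) and Selplg (PSGL-1). The members were chosen by name, and all 8 were found in the matrix. Single-cell RNA sequencing (3′ counts) was made from whole thymus at 6 weeks of age, with the cells of 5 mice of each genotype pooled into 1 library. The control genotype was Cdc42f/f (WT), and the knockout was Cdc42f/f CD4Cre (KO). Both groups carry the floxed Cdc42 alleles, and Cre, driven by CD4 regulatory sequence, is carried by the KO mice alone. CD4Cre becomes active around the double-positive (DP) stage, so double-negative (DN) cells lie before it. With 1 pooled library per genotype no difference between WT and KO could be tested, and every interval given here is a 95% interval that covers counting error only.

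Microvilli are finger-like protrusions around a core of actin filaments. ERM proteins bind phosphatidylinositol lipids and the tails of membrane proteins through their FERM domain, and actin through their C-terminal tail, once a threonine in that tail has been phosphorylated. In lymphocytes LOK and SLK phosphorylate this threonine, and CD43, CD44 and PSGL-1 are known ERM-binding surface proteins, of which PSGL-1 sits on microvilli and supports rolling. Moesin and ezrin are the ERM proteins known from T cells.

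The 3 ERM genes are paralogs, and the coding ends that hold the regulatory threonine show how alike they are. The last 25 codons are given 5′ to 3′ from the GENCODE vM21 transcripts, without the stop codon, with the codon of this threonine in capitals. It is codon 567 of Ezr, 558 of Msn and 564 of Rdx.
Ezr (GRCm38, chr17:6739306-6739380, minus strand): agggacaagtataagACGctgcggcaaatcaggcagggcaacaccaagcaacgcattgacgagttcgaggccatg
Msn (GRCm38, chrX:96166557-96166631, plus strand): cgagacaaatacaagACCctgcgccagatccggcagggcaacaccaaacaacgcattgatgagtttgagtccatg
Rdx (GRCm38, chr9:52086402-52086476, plus strand): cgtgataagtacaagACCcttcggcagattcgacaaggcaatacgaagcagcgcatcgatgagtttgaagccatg
Of these 75 bases, 63 were the same in Ezr and Msn, 60 in Msn and Rdx and 57 in Ezr and Rdx. The last 1000 bases of the transcripts, where 3′ reads fall, shared no 31-base stretch between any pair of the 3 genes, so that reads of one could be told from those of another.

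The gene of ezrin lies on chromosome 17 (GRCm38, 6738041 to 6782784, minus strand, 13 exons) and that of moesin on the X chromosome (96096042 to 96168552, plus strand, 13 exons). Radixin is on chromosome 9 (52047173 to 52088735, plus strand), Stk10 on chromosome 11 (32533305 to 32624587, plus strand) and Slk on chromosome 19 (47579678 to 47645246, plus strand). Cd44 is on chromosome 2 (102811141 to 102901665, minus strand), Spn on chromosome 7 (127132232 to 127137823, minus strand) and Selplg on chromosome 5 (113818536 to 113832644, minus strand). No member overlapped another gene on its own strand.

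The WT library held 6115 cells with 29706197 UMIs (unique molecules counted), and the KO library 7568 cells with 37920214 UMIs. The deposited clusters were used and are called by a marker. The 5 Rag1 clusters (3636 WT and 4641 KO cells) were DP-like, with 8780 and 8963 CPM (the UMIs of a gene per 1000000 UMIs of the same cells) summed over Rag1, Cd4, Cd8a and Cd8b1 in WT and KO. The 2 Cd5 clusters (535 and 843 cells) held cells with Cd5 and Cd69, and the Itm2a cluster (479 and 316 cells) held cells with Itm2a and Ccr7, known from positive selection and the single-positive (SP) stage. The Ms4a4b cluster (332 and 396 cells) was mature SP-like, with Ms4a4b, Klf2 and S1pr1. Cdc42 was at 358 CPM in WT and 320 CPM in KO in the Rag1 clusters, at 397 and 383 CPM in the Itm2a cluster, and at 447 and 581 CPM in the Ms4a4b cluster. A 3′ count need not read the floxed part of the gene, so these levels check neither the deletion nor the labels. The deposited cell names read Cdc45 where the sample titles have Cdc42, and WT or KO was taken from these names. The libraries shared 17 cell barcodes.

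In WT thymus the ERM family differed in make-up between the stages. Ezrin was the main ERM transcript of the Rag1 clusters and moesin that of the Itm2a and Ms4a4b clusters. In the Cd5 clusters moesin led by less, with 45.5% (43.4 to 47.7) of the UMIs of the 3 genes beside 40.0% (37.9 to 42.1) for ezrin. In the larger Cd5 cluster these shares were 43.7% (41.1 to 46.4) and 41.7% (39.1 to 44.3), with overlapping intervals. In the WT library Ezr was at 463 CPM (5036 UMIs) in the Rag1 clusters, 436 CPM in the Cd5 clusters, 244 CPM in the Itm2a cluster and 205 CPM (478 UMIs) in the Ms4a4b cluster. The step therefore lay between the Cd5 and the Itm2a cells, since the log2 ratio of the Cd5 over the Rag1 clusters was -0.09 (-0.19 to 0.02). Msn ran the other way, with 306, 497, 550 and 588 CPM in the same order, and its first step was already present in the Cd5 clusters at a log2 ratio of 0.70 (0.59 to 0.80). Rdx was the least abundant of the 3 in all of these groups, with 195, 158, 165 and 128 CPM.

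**Figure D1:**
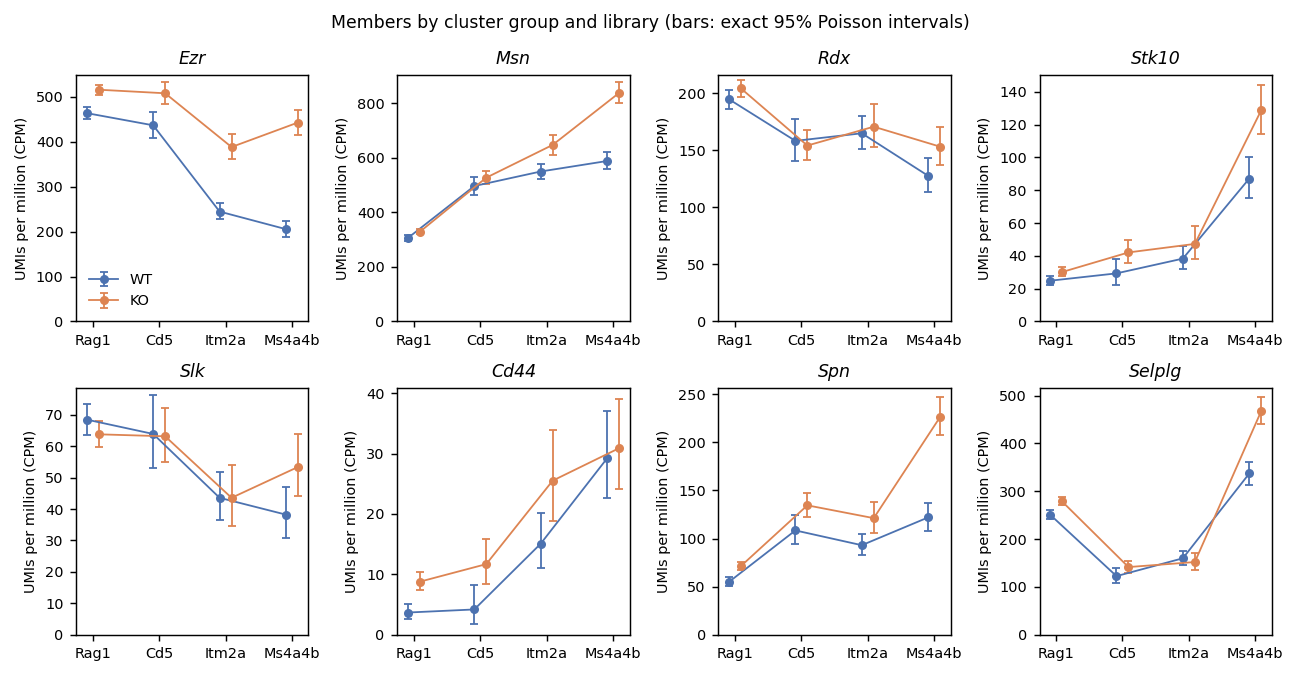
CPM of each member in the Rag1, Cd5, Itm2a and Ms4a4b cluster groups, for the WT and the KO library, with exact Poisson intervals as bars. Each panel has its own axis from 0. Ezr goes from 463 to 205 CPM along the WT line and ends at 442 CPM along the KO line, and Msn goes up in both.

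Shares of the 3 ERM transcripts give the same order without reference to the total. In a 3′ library each transcript is read near its end, so that UMIs of the 3 genes are compared per molecule and not per length. Ezr took 48.1% (47.1 to 49.0) of the ERM UMIs in the WT Rag1 clusters and 22.3% (20.5 to 24.1) in the WT Ms4a4b cluster, while Msn went from 31.7% to 63.9% (61.8 to 65.9). The summed ERM level in WT was 964, 1091, 959 and 921 CPM in the Rag1, Cd5, Itm2a and Ms4a4b groups. In the KO library the start was alike, with Ezr at 49.2% (48.4 to 49.9) in the Rag1 clusters, and the end differed, with Ezr at 30.9% (29.3 to 32.5) and Msn at 58.4% (56.7 to 60.2) in the Ms4a4b cluster. The summed ERM level there was 1433 CPM, against 1048 CPM in the KO Rag1 clusters.

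**Figure D2:**
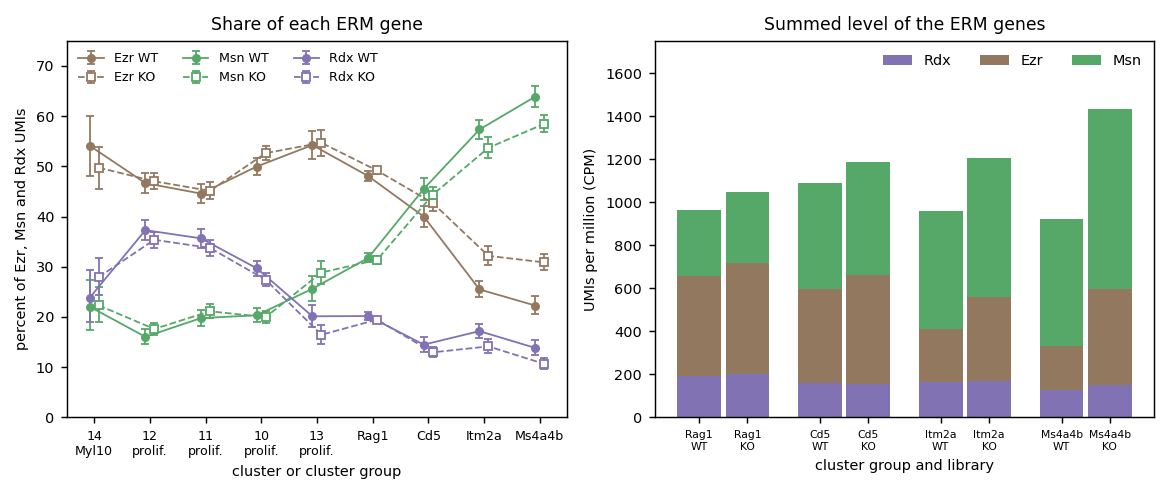
Left, percent of the summed Ezr, Msn and Rdx UMIs taken by each gene in the Myl10 cluster, 4 proliferating clusters and the 4 cluster groups, for WT (filled) and KO (open), with Clopper-Pearson intervals. Right, stacked CPM of the 3 genes. Ezr and Msn cross between the Rag1 and the Itm2a cells in both libraries, and the KO Ms4a4b column is the tallest at 1433 CPM.

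Across stages within a library, the members past 2-fold in the Ms4a4b over the Rag1 clusters in WT were Stk10, Cd44 and Spn on the higher side and Ezr on the lower side, that is 3 and 1 of 8, where 10.5% and 22.4% of all genes with at least 20 UMIs were that far higher or lower. With TMM factors, DESeq2 size factors or totals that left out mitochondrial and ribosomal protein genes, 0 members were lower by 2-fold there, so the place of Ezr past 2-fold rests on the scaling. In KO they were Msn, Stk10, Cd44 and Spn, or 4 higher and 0 lower, beside 11.1% and 16.5% of all genes. In the Itm2a over the Rag1 clusters Cd44 alone passed 2-fold, upward, in each library, beside 11.4% higher and 16.6% lower in WT and 10.4% higher and 13.8% lower in KO. The Ezr log2 ratio of the Ms4a4b over the Rag1 clusters was -1.17 (-1.31 to -1.04) in WT and -0.22 (-0.32 to -0.13) in KO, where the medians of all genes were -0.40 and -0.19. The clusters were made from the same counts, so these ratios describe the stages and were not tested.

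**Figure D3:**
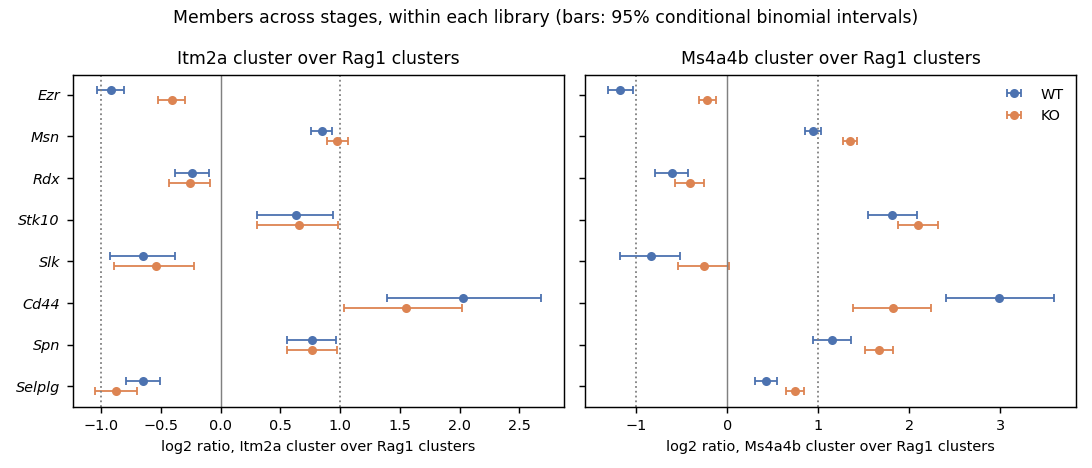
Log2 ratio of each member in the Itm2a cluster (left) and the Ms4a4b cluster (right) over the Rag1 clusters, WT and KO, with conditional binomial intervals. Dotted lines mark 2-fold. Ezr, Slk and Rdx lie below 0 and Msn, Stk10, Cd44 and Spn above it in each panel, and the largest gap between the libraries for a member with over 100 UMIs in each sum is that of Ezr in the Ms4a4b cluster.

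Between KO and WT, the member with the largest ratio in the Ms4a4b cluster was Ezr. Counting genes past 1.5-fold, the members higher in KO were 2 of 8 in the Ms4a4b cluster (Ezr and Spn), where 21% of 9586 genes were that much higher and 5.55% that much lower. They were 2 of 8 in the Itm2a cluster (Ezr and Cd44), beside 11.3% higher and 4.95% lower, and 1 of 8 (Cd44) in the Cd5 clusters, beside 7.02% and 3.56%, and in the Rag1 clusters, beside 5.8% and 2.57%. No member was lower in KO by 1.5-fold in any of the 4 groups. In the Itm2a cluster Cd44 alone was past 1.5-fold with TMM factors, DESeq2 size factors or totals that left out mitochondrial and ribosomal protein genes. The place of Ezr past 1.5-fold there thus rests on the scaling. The median log2 ratio of the 8 members was 0.15, 0.21, 0.27 and 0.49 in the Rag1, Cd5, Itm2a and Ms4a4b groups, and that of all genes 0.05, 0.04, 0.16 and 0.24. The count in the Ms4a4b cluster is thus near the background share, and of all genes there 95.5% had a lower ratio than Ezr and 91.5% a lower one than Spn.

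**Figure D4:**
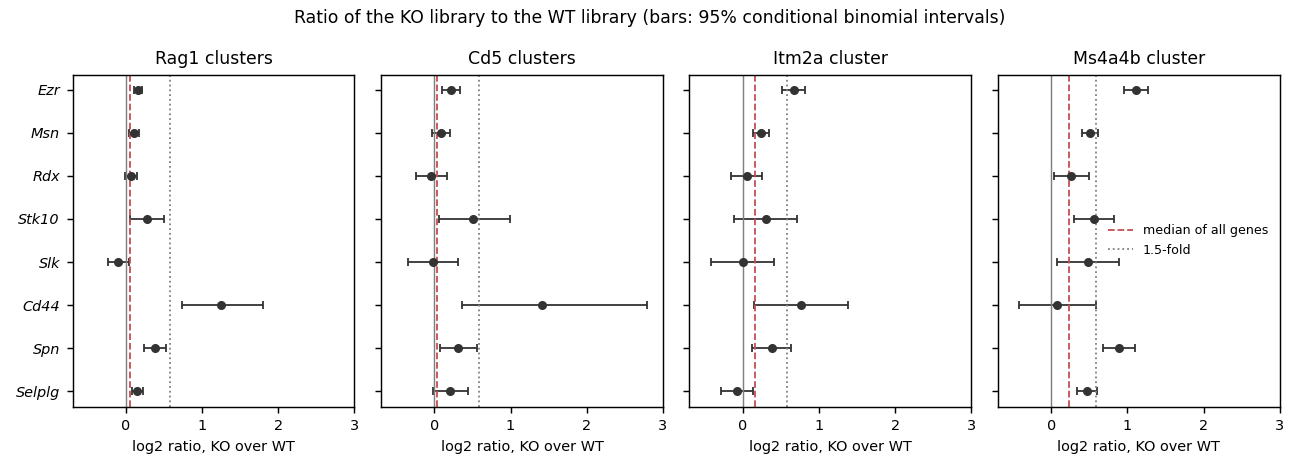
Log2 ratio of the KO over the WT library for the 8 members in the 4 cluster groups, with conditional binomial intervals. The dashed line is the median of all genes with at least 20 UMIs and the dotted line 1.5-fold. Most members lie near the dashed line, with Ezr and Spn to the right of it in the Ms4a4b cluster and Cd44 in the Rag1 and Cd5 clusters.

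Of the ERM genes, ezrin had the largest ratio of KO over WT in each of the 4 groups, though not in every single cluster. In the Ms4a4b cluster Ezr was at 205 CPM in WT (187 to 224) and 442 CPM in KO (416 to 471). This is a ratio of 2.15 (1.93 to 2.41), or a log2 ratio of 1.11, which is 0.87 above the median of all genes. The difference was smaller in the earlier cells, with 463 and 515 CPM in the Rag1 clusters and 436 and 508 CPM in the Cd5 clusters, at log2 ratios of 0.15 (0.10 to 0.20) and 0.22 (0.10 to 0.34). In the Myl10 cluster (54 WT and 99 KO cells), which holds markers of DN or gamma-delta cells, Ezr was at 287 CPM in WT and 286 CPM in KO. This is a log2 ratio of -0.01 (-0.29 to 0.29), while Selplg was at 251 and 338 CPM in the same cluster.

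The ratio of Ezr in the Ms4a4b cluster was of like size in cells with Cd4 UMIs only, at 201 CPM in WT and 439 CPM in KO, and in cells with Cd8a or Cd8b1 UMIs only, at 207 and 444 CPM. After thinning to 1000 UMIs per cell, 20.2% (16.05 to 24.98) of WT and 33.8% (29.2 to 38.7) of KO cells of the Ms4a4b cluster held an Ezr UMI. Before thinning these shares were 66.6% and 84.1%, at median depths of 6738 and 5032 UMIs. Rag1, a DP gene, was at 88.9 CPM in WT and 184 CPM in KO in this cluster. When the Ezr that DP RNA would bring along with this Rag1 was taken off, 191 CPM remained in WT and 408 CPM in KO, a log2 ratio of 1.09. This step took off only 14.1 and 34.5 CPM, and it does not cover cells that hold Ezr with lower DP markers. In the Cd5 clusters Ezr was at 436 and 508 CPM, with the DP markers summed to 2719 and 3210 CPM. The part of such cells in the Ezr ratio was not tested.

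Markers of other states also differed in this cluster. Of the mature SP markers, Klf2, a transcription factor of T cell egress, was at 679 CPM in WT and 1626 CPM in KO, S1pr1, the egress receptor, at 261 and 643 CPM, and Ms4a4b at 1591 and 1874 CPM. The 5 DN or gamma-delta markers summed to 181 and 331 CPM, with the T cell receptor gene Trdc at 92.8 and 206 CPM, and the signalled DP markers Cd5 and Cd69 to 340 and 503 CPM. The 5 NK or innate-like T markers summed to 667 and 650 CPM, with Ccl5 at 214 and 337 CPM and Nkg7 at 346 and 236 CPM. The 4 regulatory T markers summed to 325 and 137 CPM, with Foxp3 at 0 in KO. This sum is not particular to regulatory T cells, since it was 845 and 840 CPM in the Cd5 clusters, with Foxp3 at 0 in both libraries. B cell markers were at 27.5 and 21.6 CPM with Ms4a1 at 0 in both, MHC class II markers at 14.2 and 11.5 CPM, dendritic markers at 1.3 and 7.1 CPM and macrophage markers at 6.0 and 36.6 CPM. The part of these states in the Ezr and Spn ratios was not tested.

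In the Itm2a cluster Ezr was at 244 CPM in WT and 388 CPM in KO, a log2 ratio of 0.67 (0.52 to 0.82). Here the value depended on how the cluster was drawn. At resolution 1.8 the Itm2a cluster was smaller (173 WT and 186 KO cells), and Ezr was at 305 and 358 CPM, a log2 ratio of 0.23. The cells of the deposited cluster that fell outside it (337 WT and 156 KO) had Ezr at 228 and 421 CPM, a log2 ratio of 0.88 (0.69 to 1.07). Mature markers did not go one way in these cells. Ms4a4b was lower in KO, at 406 and 217 CPM. Klf2 was higher, at 206 and 385 CPM, a log2 ratio of 0.90 (0.70 to 1.10). S1pr1 had a log2 ratio of -0.27 (-1.11 to 0.46). The cells inside the smaller cluster (142 WT and 160 KO) had Ezr at 295 and 352 CPM, a log2 ratio of 0.26 (0.00 to 0.51). Ms4a4b was at 59.8 and 48.8 CPM in the cells inside, and Klf2 at 4.08 and 114 CPM, on 3 and 103 UMIs. The part of maturity in the Ezr ratios was not tested.

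**Figure D5:**
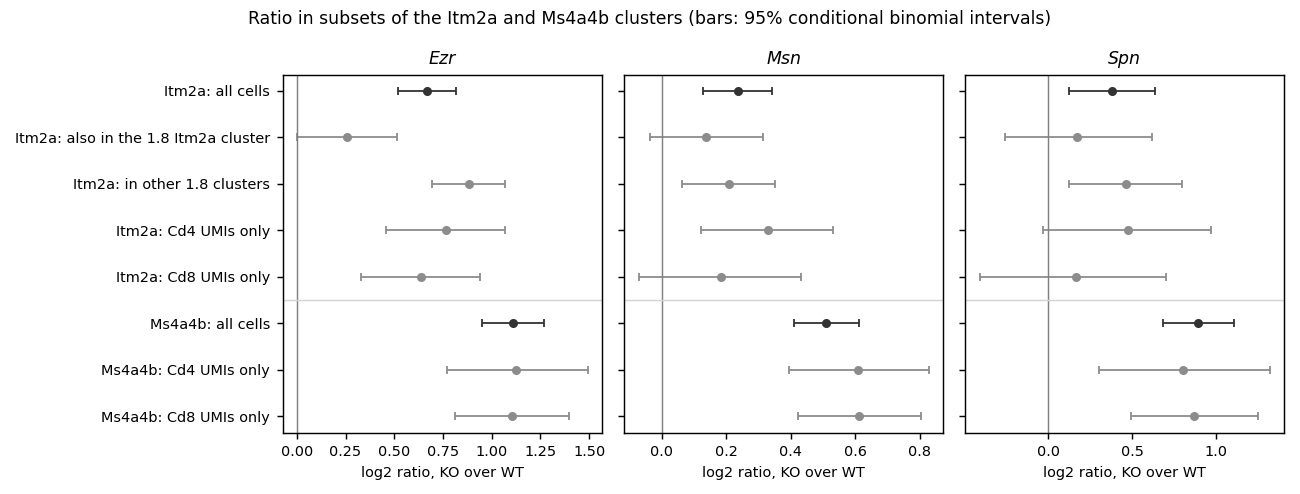
Log2 ratio of KO over WT for Ezr, Msn and Spn in all cells of the Itm2a and Ms4a4b clusters (dark) and in subsets of them (grey), split by the cluster of resolution 1.8 or by coreceptor UMIs, with conditional binomial intervals. Each panel has its own axis. The Ezr ratio is 1.11 in all Ms4a4b cells and of like size in both coreceptor subsets, and spreads from 0.26 to 0.88 within the Itm2a cluster.

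Moesin differed less. In the Ms4a4b cluster Msn was at 588 CPM in WT and 838 CPM in KO, a log2 ratio of 0.51 (0.41 to 0.61), which is 0.27 above the median of all genes. With TMM factors the log2 ratio was 0.25, and with cells thinned to 1000 UMIs it was 0.25. In the Itm2a cluster it was at 550 and 647 CPM (0.24, 0.13 to 0.34), in the Cd5 clusters at 497 and 527 CPM and in the Rag1 clusters at 306 and 329 CPM. Msn is X-linked, and Xist, the RNA of the inactive X, was read in both pools, at 1413 and 1516 CPM in the Rag1 clusters and at 1086 and 1449 CPM in the Ms4a4b cluster of WT and KO. The sex of the mice was not given in the sources used here, and its part in the Msn ratio was not tested.

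Radixin had the smallest ratio of the ERM genes in the Itm2a and Ms4a4b clusters. Rdx was at 195 and 204 CPM in the Rag1 clusters of WT and KO, 158 and 154 CPM in the Cd5 clusters, 165 and 171 CPM in the Itm2a cluster, and 128 and 153 CPM in the Ms4a4b cluster. The last gave a log2 ratio of 0.26 (0.04 to 0.49), against 0.24 for the median gene. With cells thinned to 1000 UMIs it was at 90.6 and 162 CPM there, on 30 and 64 UMIs, which is past 1.5-fold. In cells with Cd8 UMIs only it was at 119 and 185 CPM, a log2 ratio of 0.64 (0.22 to 1.06). Over the clusters Rdx was highest in the proliferating clusters 10, 11 and 12, at 337, 319 and 309 CPM in WT and 349, 317 and 297 CPM in KO.

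Promoter sequence is shown for Ezr and Msn, which went opposite ways between the stages, and for Spn, which was higher with Ezr in the KO Ms4a4b cluster. The 250 bases before the RefSeq start (GRCm38.p6) are written 5′ to 3′ along the gene, with matches of CACCC, the core bound by KLF factors, and of CCGGAAG, bound by ETS factors, in capitals on either strand.
Ezr (chr17:6782781-6783030, minus strand): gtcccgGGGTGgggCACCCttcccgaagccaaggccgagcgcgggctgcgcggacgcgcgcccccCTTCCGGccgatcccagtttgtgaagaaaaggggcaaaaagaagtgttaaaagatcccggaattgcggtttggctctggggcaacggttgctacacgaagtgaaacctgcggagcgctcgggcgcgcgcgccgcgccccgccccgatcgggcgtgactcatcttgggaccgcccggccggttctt
Msn (chrX:96095795-96096044, plus strand): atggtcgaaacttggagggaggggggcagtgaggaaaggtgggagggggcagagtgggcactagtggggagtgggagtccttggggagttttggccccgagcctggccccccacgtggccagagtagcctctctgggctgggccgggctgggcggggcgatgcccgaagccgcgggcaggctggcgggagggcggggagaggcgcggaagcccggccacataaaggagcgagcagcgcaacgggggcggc
Spn (chr7:127137824-127138073, minus strand): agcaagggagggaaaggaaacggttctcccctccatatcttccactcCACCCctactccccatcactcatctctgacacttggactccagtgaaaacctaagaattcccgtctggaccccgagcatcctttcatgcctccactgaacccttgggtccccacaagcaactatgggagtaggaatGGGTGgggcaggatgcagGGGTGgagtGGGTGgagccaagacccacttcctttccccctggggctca
The Ezr window held 2 CACCC matches and 1 CCGGAAG match, that of Msn held 0 of each, and that of Spn held 4 CACCC matches and 0 of the other. Of 32851 promoters, 52.0% held CACCC and 6.91% CCGGAAG in these 250 bases, so a CACCC match is common. RefSeq promoters were found for 7 of the 8 members, all but Selplg. Of those not shown, Stk10 held 3 CACCC matches, Rdx 1 in each of its 2 windows, and Slk and Cd44 0, with 0 CCGGAAG matches in any of them. The matches overlapped no other match, and no binding was measured.

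The more abundant of the 2 kinase transcripts also differed by stage. Slk, which is broadly expressed, was the more abundant in the Rag1 and Cd5 clusters and Stk10, known from lymphocytes, in the Ms4a4b cluster. In WT, Stk10 was at 24.8 CPM in the Rag1 clusters, 29.3 CPM in the Cd5 clusters, 38.3 CPM in the Itm2a cluster and 87.2 CPM in the Ms4a4b cluster, while Slk was at 68.5, 63.9, 43.6 and 38.2 CPM. Stk10 thus took 26.6% (23.9 to 29.5) of the UMIs of both kinases in the Rag1 clusters and 69.5% (63.9 to 74.7) in the Ms4a4b cluster. In the KO library these shares were 32.1% (29.7 to 34.6) and 70.7% (66.1 to 75.1).

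In KO, Stk10 was at 30.1, 42.1, 47.3 and 129 CPM in the 4 groups. Its log2 ratio to WT was 0.28 (0.06 to 0.50), 0.51 (0.07 to 0.99), 0.30 (-0.11 to 0.71) and 0.56 (0.30 to 0.83), under 1.5-fold in each. With cells thinned to 1000 UMIs the order turned in the Itm2a cluster, at 37.6 CPM in WT and 25.4 CPM in KO on 18 and 8 UMIs, and the Cd5 clusters passed 1.5-fold, at 28.2 and 53.7 CPM on 15 and 45 UMIs. Slk was at 63.8, 63.2, 43.6 and 53.4 CPM in KO, with log2 ratios of -0.10, -0.02, 0.00 and 0.48 (0.08 to 0.89). The last rests on 89 and 121 UMIs, and with thinned cells, on 16 and 17 UMIs, it was -0.17. In cells of the Ms4a4b cluster with Cd4 UMIs only, Slk was at 40.2 and 36.6 CPM, and in those with Cd8 UMIs only at 35.5 and 55.5 CPM, with intervals of the ratio that include 0 in both.

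Among the linkers, CD43, a large sialylated mucin, had the largest ratio in the Ms4a4b cluster. Spn was at 122 CPM in WT (284 UMIs) and 226 CPM in KO (513 UMIs), a ratio of 1.85 (1.60 to 2.15), which is 0.65 on the log2 scale above the median of all genes. The levels differed likewise in cells with Cd4 UMIs only, at 112 and 197 CPM, and in cells with Cd8 UMIs only, at 136 and 248 CPM. After thinning, 9.1% (6.2 to 12.7) of WT and 22.0% (17.99 to 26.38) of KO cells of the cluster held a Spn UMI. Earlier, Spn was at 54.9 and 71.4 CPM in the Rag1 clusters, 108 and 134 CPM in the Cd5 clusters and 93.1 and 121 CPM in the Itm2a cluster of WT and KO, with log2 ratios of 0.38 (0.23 to 0.52), 0.31 (0.07 to 0.55) and 0.38 (0.12 to 0.64). At resolution 1.8 the last was 0.12. In WT the Cd5 cells already had more Spn, at a log2 ratio of 0.98 (0.75 to 1.21) over the Rag1 clusters.

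PSGL-1, a selectin ligand, was lowest in the Cd5 clusters and highest in the Ms4a4b cluster. Selplg was at 251 CPM in the WT Rag1 clusters, 123 CPM in the Cd5 clusters, 160 CPM in the Itm2a cluster and 337 CPM in the Ms4a4b cluster. The KO library had 279, 142, 152 and 468 CPM. The log2 ratios of the Cd5 over the Rag1 clusters had overlapping intervals, at -1.03 (-1.23 to -0.84) in WT and -0.98 (-1.12 to -0.84) in KO. The log2 ratio of KO over WT was 0.47 (0.34 to 0.61) in the Ms4a4b cells. TMM factors brought this to 0.21. The log2 ratio was -0.07 (-0.29 to 0.14) in the Itm2a cluster.

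CD44, the hyaluronan receptor, was a rare transcript in these 4 groups. In WT it was at 3.68 CPM in the Rag1 clusters (40 UMIs), 4.19 CPM in the Cd5 clusters (8 UMIs), 15.1 CPM in the Itm2a cluster (46 UMIs) and 29.2 CPM in the Ms4a4b cluster (68 UMIs). In KO it was at 8.79 CPM (135 UMIs), 11.7 CPM (40 UMIs), 25.5 CPM (48 UMIs) and 30.9 CPM (70 UMIs). The log2 ratios in the first 3 groups were 1.24 (0.737 to 1.802), 1.41 (0.37 to 2.79) and 0.76 (0.14 to 1.37). In the Ms4a4b cluster the log2 ratio was 0.08 (-0.42 to 0.58). This last interval lay apart from that of the Rag1 clusters and overlapped those of the Cd5 and Itm2a groups.

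Over the 16 clusters with at least 50 cells in each library, the lowest Cd44 levels were 1.36 CPM in the proliferating cluster 12 of WT and 2.02 CPM in the Myl10 cluster of KO. A Cd44 UMI was found in 1.07% of WT and 2.56% of KO cells of the Rag1 clusters, at median depths of 2823 and 3097 UMIs, and in 1.85% and 2.02% of cells of the Myl10 cluster, at 9497 and 9447 UMIs. Thinned to 1000 UMIs, 0.361% (0.193 to 0.617) and 0.713% (0.491 to 0.999) of the Rag1 cells held one, with overlapping intervals, and in the Cd5 clusters 0.752% and 0.716%, where thinning left 4 and 6 UMIs and the log2 ratio was -0.13. Over the same 16 clusters Cd44 was highest in the Cd74 cluster (63 WT and 87 KO cells), at 327 CPM in WT and 118 CPM in KO. In the smaller Apoe cluster Cd44 was at 142 and 154 CPM, on 6 and 11 UMIs. Macrophage markers were at 47.5 and 43.1 CPM and B cell markers at 59.5 and 61.7 CPM in the Rag1 clusters. The part of free RNA in these low values was not tested.

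Cd44 values also differed with the coreceptor. In the Ms4a4b cluster, cells with Cd4 UMIs only held 18 UMIs in WT and 4 in KO, or 36.1 and 9.14 CPM, a log2 ratio of -1.85 (-4.01 to -0.38). Those with Cd8 UMIs only held 18 and 12 UMIs, or 22.0 and 22.2 CPM. In the Itm2a cluster, cells with Cd4 UMIs only held 20 and 10 UMIs, or 22.8 and 20.4 CPM, and those with Cd8 UMIs only 3 and 9 UMIs, at a log2 ratio of 2.82 (0.97 to 5.49). Regulatory T cells are known to hold CD44. Their summed markers were lower in the KO Ms4a4b cluster, but as given above this sum is not particular to regulatory T cells. The part of these cells in the Cd44 values was not tested.

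Outside these 4 groups the members had their own places. Over the 16 clusters with at least 50 cells in each library, Ezr was highest in the proliferating clusters 13 and 10, at 685 and 567 CPM in WT and 740 and 671 CPM in KO. It was lowest in the Cd74 cluster of cells rich in MHC class II RNA, at 173 and 241 CPM. Msn was lowest in the Myl10 cluster, at 117 and 128 CPM, and highest in the Ms4a4b cluster, so its span was 5.03-fold in WT and 6.53-fold in KO. Cd44 had the widest span, from 1.36 CPM in the proliferating cluster 12 of WT to 327 CPM in the Cd74 cluster. Neighbours in the order of levels mostly overlapped in their intervals: of 15 pairs per gene and library, between 0 and 4 were apart.

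In the proliferating clusters Ezr had log2 ratios of KO over WT of 0.24 (0.16 to 0.33), 0.09, 0.03 and 0.11 in clusters 10 to 13. Spn was higher in cluster 12, at 33.6 and 48.5 CPM, and had an interval that includes 0 in the other 3. Cd44 had 12 and 38 UMIs in cluster 10 and 11 and 27 UMIs in cluster 13, and Stk10 was lower in KO in cluster 13, on 23 and 12 UMIs. In the Lars2 cluster of cells poor in RNA Ezr was at 252 and 358 CPM, from 73 and 183 UMIs. In the small cluster 18 (24 WT and 8 KO cells) Ezr was at 243 and 574 CPM, on 107 and 81 UMIs. This is a log2 ratio of 1.24 (0.81 to 1.67), of the size found for Ezr in the Ms4a4b cluster. In the Myl10 cluster Selplg was at 251 and 338 CPM, a log2 ratio of 0.43 (0.14 to 0.73), which is of the size found for Selplg in the Ms4a4b cluster. In the Cd74 cluster Msn was at 318 and 537 CPM and Spn at 90.9 and 34.5 CPM, the latter on 20 and 17 UMIs. This cluster held 63 WT and 87 KO cells, at unlike median depths of 1202 and 4284 UMIs, and 83.5% of genes had a lower ratio than Msn. The part of its cell types in these differences was not tested.

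Of 27 other genes of the ERM pathway, such as the upstream GTPase Rhoa, the ROCK kinases, lipid kinases, phosphatase subunits and scaffolds, 26 were in the matrix and 23 had at least 20 UMIs. In the Ms4a4b cluster 6 of these 23 were higher in KO by 1.5-fold and 0 lower, where 21% and 5.55% of all genes were, and their median log2 ratio was 0.35, beside 0.24 for all genes. In the Itm2a cluster 1 was higher and 0 lower, where 11.3% and 4.95% of all genes were, with a median of 0.21 beside 0.16. Neither count stands out from these shares. Rhoa was the one with the largest ratio in the Ms4a4b cluster among genes of at least 100 UMIs, at 376 CPM in WT and 707 CPM in KO, a log2 ratio of 0.91 (0.79 to 1.03). Arhgdia followed at 162 and 263 CPM. The lowest were Ppp1cc, a catalytic subunit of protein phosphatase 1, at 97.9 and 82.5 CPM, and the protein kinase C gene Prkca at 53.7 and 56.0 CPM.

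In the Itm2a cluster the highest of these genes were Icam2, an ERM-binding adhesion molecule, at 53.1 and 82.9 CPM (0.64, 0.32 to 0.97) and Rhoa at 446 and 663 CPM (0.57, 0.46 to 0.68). The lowest were Baiap2, an adaptor of Cdc42 and actin, at 33.7 and 23.9 CPM, and the actin bundler Lcp1 (plastin) at 424 and 384 CPM, with a log2 ratio of -0.14 (-0.27 to -0.01). Of 14 listed glycosylation enzymes, among them ones that build the O-glycans carried by CD43 and PSGL-1, 9 had at least 20 UMIs. In the Ms4a4b cluster 3 of them were higher by 1.5-fold, where 21% of all genes were, and 0 lower, with a median of 0.33 beside 0.24. In the Itm2a cluster 1 was higher, where 11.3% of all genes were, and 0 lower, with a median of 0.45 beside 0.16. B4galt1, a galactosyltransferase, was at 52.4 and 86.0 CPM in the Ms4a4b cluster (0.71, 0.38 to 1.05) and at 23.9 and 34.5 CPM in the Itm2a cluster. C1galt1, the core 1 synthase, was at 76.9 and 101 CPM in the first and at 85.5 and 107 CPM in the second. The sialyltransferase St3gal1 was at 50.2 and 53.8 CPM in the Ms4a4b cluster and at 39.7 and 60.1 CPM in the Itm2a cluster. St3gal6 was at 27.1 and 24.7 CPM in the first and Galnt1, which starts the O-glycan, at 77.7 and 79.7 CPM in the second.

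Genes with the most similar pattern were sought for each member over 17 clusters, among 3256 genes, by Pearson's r of log2 levels in WT. The clusters share a library, so r is a description. The genes were picked for a high r in WT, so a lower r in KO cannot be read as a change of pattern. Cluster 18, with 24 WT and 8 KO cells, was among the clusters used. For Ezr they were Ap3s1 (0.96), Gtf2b (0.94) and Rcbtb2 (0.93), and in KO these had r of 0.69, 0.67 and 0.65. For Msn they were Lbh (0.92), Cytip (0.92) and Agfg1 (0.91), with 0.80, 0.90 and 0.53 in KO. For Rdx they were Anapc5 (0.94), a subunit of the anaphase-promoting complex, Rpa3 (0.94), a subunit of replication protein A, and Prelid3b (0.91), with 0.78, 0.90 and 0.92 in KO.

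The pattern of Stk10 was closest to Ms4a4b (0.86), Klf2 (0.85) and Gimap4 (0.84), genes of mature T cells, with 0.64, 0.75 and 0.81 in KO. That of Slk was closest to Qk (0.85), Spag9 (0.80) and Dync1h1 (0.77), with 0.71, 0.53 and 0.64 in KO. Cd44 was closest to Ly6c2 (0.92), Fcer1g (0.90) and Ctss (0.90), the last 2 known from myeloid cells, with 0.81, 0.85 and 0.85 in KO. Spn was closest to Cd53 (0.88), Tes (0.87) and Tmsb10 (0.87), with 0.61, 0.77 and 0.73 in KO. Selplg was closest to Zfand6 (0.78) and Arl4c (0.72), with 0.42 and 0.72 in KO. Between members, r was 0.80 for Stk10 and Spn and -0.73 for Rdx and Spn in WT, and 0.54 and -0.58 in KO, while Ezr and Msn had -0.19 and 0.16.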

How the data were processed

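Thymus cells of 5 Cdc42f/f (WT) and 5 Cdc42f/f CD4Cre (KO) mice were pooled into 1 10x Genomics 3′ library per genotype. The authors deposited raw UMI counts by gene and cell, with Seurat cluster numbers at resolutions 1.5, 1.8 and 2. Per the submitters' notes, Cell Ranger 3.0.2, STAR and Seurat were used with build mm10, and cells under 200 or over 6000 genes, or over 50000 reads, had been removed. The matrix held 13683 cells, fewer than the study names.

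Counts were summed per cluster (resolution 1.5) and library and given as CPM, at a depth of 29706197 (WT) and 37920214 (KO) UMIs. Log2 ratios were taken after 0.5 was added to both sums, over genes with at least 20 UMIs. Intervals at 95% are exact Poisson for levels, conditional binomial for ratios and Clopper-Pearson for shares, and no test was made. Ratios and intervals were tested on simulated data. The members and gene lists were chosen with earlier results of these data known. All members are named, and of each other list the 2 genes with the highest and the 2 with the lowest ratio among those with at least 100 UMIs. Similar genes used log2(CPM + 10) over clusters of at least 100000 UMIs, for genes with a mean of at least 50 CPM, and the 3 with the highest r in WT are named, except 1 gene that is not reported here. Doublets were scored by Scrublet (scanpy 1.11.5). Its automatic threshold marked 2 WT and 0 KO cells and had not worked, so 332 and 392 cells were marked at an expected rate of 6% and left out in an alternative only. Other alternatives were TMM factors (edgeR 4.0.16), DESeq2 1.42.0 size factors, totals that left out mitochondrial and ribosomal protein genes, a minimum of 5 or 50 UMIs, the mean over cells of counts per 10000, thinning to 1000 UMIs per cell, other resolutions, 1 added, and leaving out cells over 10% mitochondrial or the 5% of deepest cells. The split of the Itm2a cluster, the coreceptor subsets and the removal of DP RNA were chosen after seeing the data.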

Additional observations from a re-analysis of the deposited data

How the results depend on the processing

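No paired analysis was possible because each condition had 1 library. Over the alternatives chosen first, 522 values of single members moved by less than the longer arm of their counting interval, 99 moved further, with or without a turn in sign, and 3 reversed, which means a change of sign where the interval had left out 0. The log2 ratio of KO over WT for Ezr in the Ms4a4b cluster ranged from 0.85 to 1.21, for Msn there from 0.25 to 0.55, for Spn there from 0.63 to 1.36, and for Ezr in the Itm2a cluster from 0.23 to 0.67. With cells thinned to 1000 UMIs, Cd44 in the Cd5 clusters became -0.13, Slk in the Ms4a4b cluster -0.17 and Stk10 in the Itm2a over the Rag1 clusters of KO -0.29. In cells with Cd4 UMIs only, Cd44 in the Itm2a cluster became -0.13, Rdx in the Ms4a4b cluster -0.0856 and Slk there -0.13. The cause of these reversals was not tested, and the counts behind Cd44, Slk and Stk10 were low.

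With TMM factors, DESeq2 size factors or totals that left out mitochondrial and ribosomal protein genes, 1 member in place of 2 was higher by 1.5-fold in the Itm2a cluster of KO, and 0 in place of 1 were lower by 2-fold in the Ms4a4b over the Rag1 clusters of WT, where the median of the members was 0.96, 0.96 and 0.97 in place of 0.68. The median in the Ms4a4b cluster of KO over WT was 0.24 with TMM and 0.27 with DESeq2 size factors, in place of 0.49. In the Itm2a over the Rag1 clusters, 2 members in place of 1 were higher by 2-fold in both libraries with thinning and at resolutions 1.8 and 2, and in KO also with totals that left out mitochondrial and ribosomal protein genes, while 1 in place of 0 was lower in KO with thinning and at resolutions 1.8 and 2. The median there was -0.000311 in WT at resolution 1.8 and 0.000137 at resolution 2, in place of 0.20, and -0.31 in KO with thinning.

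With 1 pooled library per condition, differences between mice, pools and library preparations cannot be told apart from the genotype.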
